A study of Mus musculus with 24 samples.

Results

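The genes described here are 10 known identity genes of conventional dendritic cells type 2 (cDC2): Cd209a, Clec10a, Mgl2, Clec4a4, Sirpa, Esam, Irf4, Klf4, Tnip3 and Ltb. They were found by matching the Ensembl identifiers of the files to mouse gene symbols, and all 10 matched among the 45792 genes listed. All 10 also passed the filter on low values (a mean log2 of 4 or more), as 14227 genes did.

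The cells came from livers of female C57BL/6 mice kept for 2 weeks on food without methionine and choline, a diet that induces steatohepatitis. Every mouse then received liposomes labelled with the lipophilic dye DiI into a vein, and CD11c+ MHC class II+ cells were sorted 24 hours later. The 4 groups, of 3 libraries each, were DiI-negative and DiI-positive cells after empty liposomes, and DiI-negative and DiI-positive cells after liposomes loaded with curcumin, a plant polyphenol. No group without liposomes or on another diet is used here, so diet, dye and injection are common to all 12 libraries. Dye marks the cells that carried liposome label at the time of the sort, and no source used here ties the libraries of a group to separate mice or to pools. The p-values therefore describe how far these libraries scatter, which may be technical.

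Conventional dendritic cells take up antigen, process it and present it to T cells, and the type 2 lineage is known above all for priming CD4+ T cells. Its development depends on the transcription factors IRF4 and, for a subset, KLF4, and the Notch2-dependent subset carries the adhesion molecule ESAM. The lineage is recognised by SIRP alpha and by C-type lectins that bind glycans on microbes and on host cells. Several of these genes are not restricted to the lineage: macrophages and monocytes also carry SIRP alpha, B and T lymphocytes also make lymphotoxin beta, and endothelial cells also carry ESAM.

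Genes of the sorting gate were abundant, with a mean log2 value of 12.93 for Itgax, which encodes CD11c, and of 19.23 for Cd74, the MHC class II invariant chain. Markers of other cells were also present. Between the gates, all 10 of 10 B cell markers and 9 of 10 Kupffer cell markers were higher in DiI-positive cells, whereas 6 of 8 classical monocyte markers and 8 of 12 T and NK cell markers were lower (limma, adjusted p under 0.05, average over both liposomes). None of these markers was listed at 0 in all libraries. Of all tested genes, 6.56% were called lower and 5.54% higher over both liposomes. Counts for the gene lists below stand beside these shares. A relative depth index ran from 0.7276 to 1.1403 in DiI-positive and from 1.0064 to 1.203 in DiI-negative libraries. It was derived from very low values that were taken to reflect a single read, an assumption that was not tested. Curcumin DiI-positive replicate 3 stood apart from the other 2 libraries of its group in many of the genes below, and values without it are given where it moved a result most. It was not the only such library: replicate 1 of that group stood apart in Mgl2 and Klf4. When limma weighted libraries by their scatter, replicate 1 had the lowest weight of all, 0.436, against 0.733 and 0.727 for replicates 2 and 3. In such bulk RNA, fewer cells of a type and less RNA per cell cannot be told apart.

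Set per kilobase of exon, Cd209a, Ltb and Sirpa were the most abundant of the 10 genes, and Esam the least. On a scale of mean log2 value per kilobase over all 12 libraries, Cd209a stood at 12.43, Ltb at 12.39 and Sirpa at 12.10. The order of these 3 differed by gate: Cd209a led in DiI-negative libraries, at 13.45 against 11.99 for Ltb and 11.95 for Sirpa, and came last of them in DiI-positive libraries, at 11.42 against 12.79 for Ltb and 12.23 for Sirpa. Clec10a (8.40), Irf4 (8.24), Mgl2 (7.59), Klf4 (7.47) and Tnip3 (6.37) formed a middle range. The place of Tnip3 rests on the length of all its annotated exons together, 10916 bases against 2899 for Clec10a. Before division by length, their means were 9.82 and 9.93. Clec4a4 (5.75) and Esam (3.90) lay lowest. The deposited scale resembles a shrunken log2, on which the fold changes of genes this low would be understated.

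**Figure D1:**
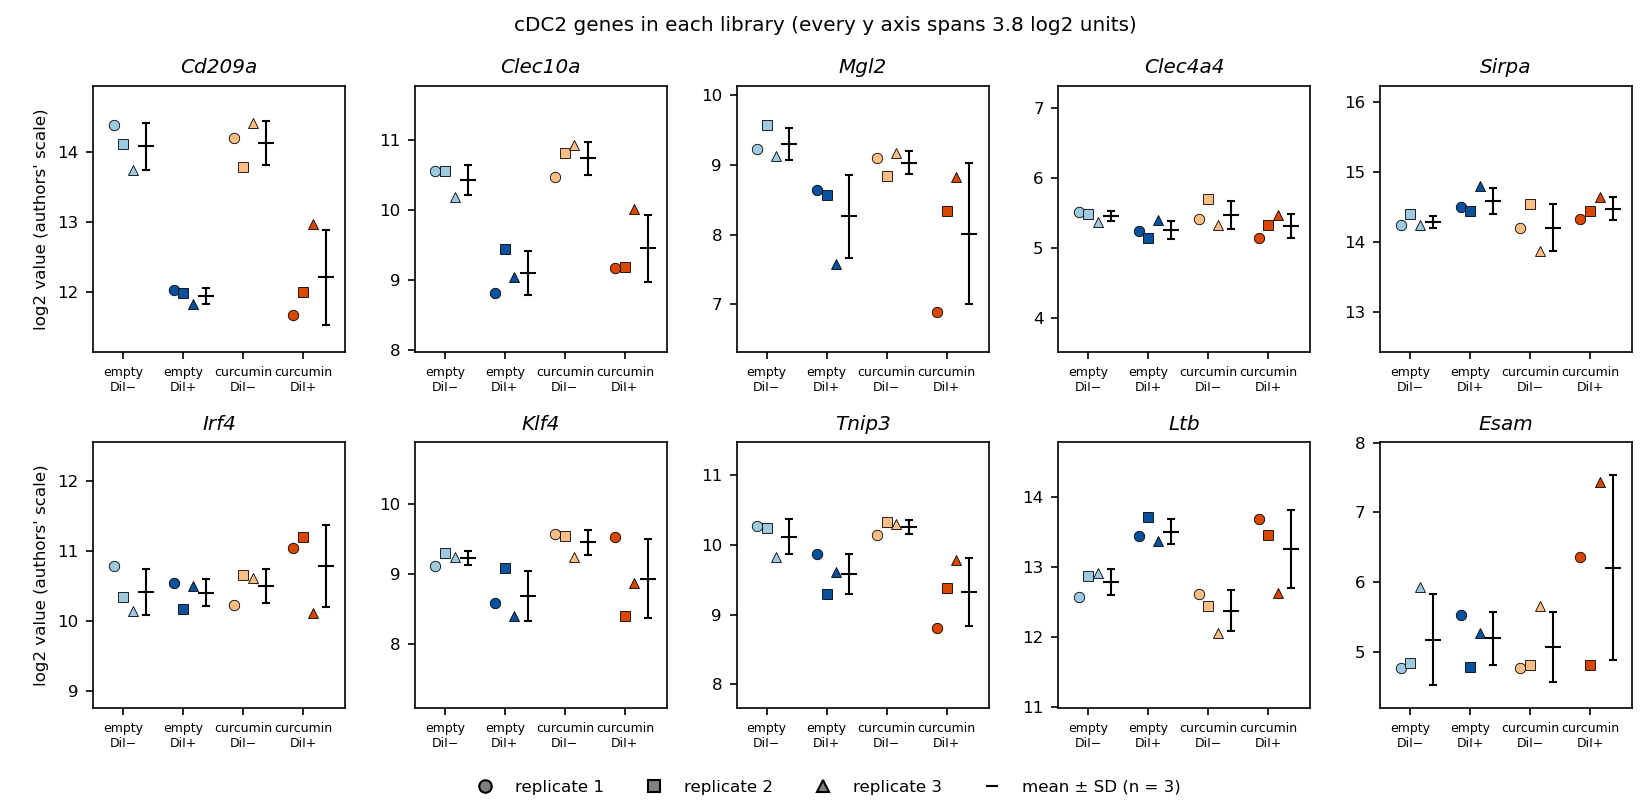
Log2 value of each of the 10 cDC2 genes (y axis, every panel spanning the same number of log2 units) in each of the 12 libraries, by group (x axis), with the mean and SD of the 3 libraries beside the points. Cd209a, Clec10a and Mgl2 lie lower in DiI-positive than in DiI-negative libraries with no overlap, Ltb lies mostly higher, and Irf4 overlaps in every pair of groups.

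The first question is how cells that held liposome dye differed from DiI-negative cells of the same sort. Below, fell and rose mean lower and higher in DiI-positive than in DiI-negative cells, not a change over time. The 3 lectins Cd209a, Clec10a and Mgl2 and Tnip3, which encodes a partner of the enzyme A20, were lower in DiI-positive cells, and Ltb, the lymphotoxin beta subunit, was higher, in the limma test that averages both liposomes. Cd209a was 4.08-fold lower, Clec10a 2.48-fold, Mgl2 2.04-fold and Tnip3 1.66-fold, and Ltb was 1.74-fold higher. The transcription factors Irf4 and Klf4, the surface molecules Sirpa and Esam and the lectin Clec4a4 did not pass the test.

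Thus 4 of 10 genes were called lower and 1 of 10 higher over both liposomes, where 6.56% of all tested genes were called lower and 5.54% higher. The 10 genes were chosen with earlier results of these data known, so their counts are not independent of that choice. The median log2 fold change of the 10 was -0.36, and that of all tested genes was 0.005. After empty liposomes alone, 2 of 10 were called lower and 0 higher, against 1.62% and 1.32% of all tested genes. After curcumin liposomes alone, 2 of 10 were again lower and 0 higher, against 1.67% and 1.41%. The 2 called under each liposome were Cd209a and Clec10a, and the medians of the 10 genes were -0.36 and -0.34.

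Groups of 3 libraries did not overlap for 6 of the 10 genes after empty liposomes, where this held for 26.9% of all tested genes. After curcumin liposomes they did not overlap for 5 of 10, where the share of all tested genes was 20.6%. All 6 DiI-positive libraries lay below all 6 DiI-negative libraries for Cd209a, Clec10a and Mgl2, and 6.04% of all tested genes separated in one direction or the other.

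**Figure D2:**
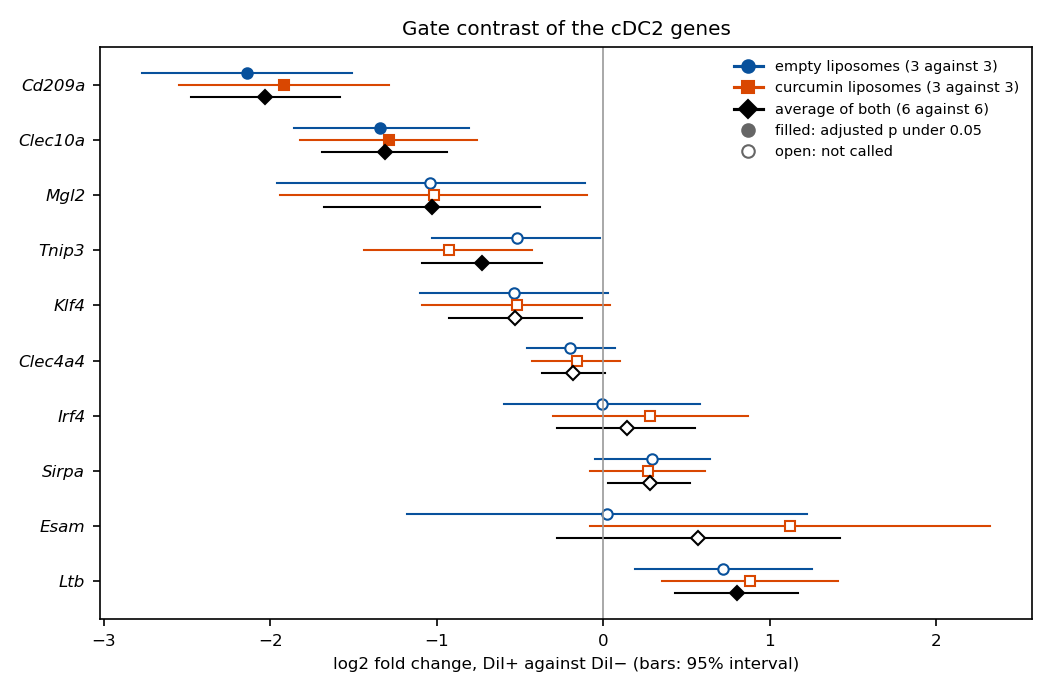
Log2 fold change of DiI-positive against DiI-negative cells (x axis) for each cDC2 gene (y axis), after empty liposomes, after curcumin liposomes and averaged over both, with 95% intervals from limma; filled symbols passed an adjusted p of 0.05. Of the averages, Cd209a (-2.03) lies farthest to the left and Ltb (0.80) farthest to the right. Esam after curcumin liposomes lies farther right, at 1.12, and was not called. The empty and curcumin estimates of each gene have overlapping intervals.

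The promoters of the called genes are shown because these genes differed between the gates in opposite directions. RefSeq (GRCm38.p6) promoter windows, 250 bases before the annotated start, were matched for 6 of the 10 genes: Klf4, Tnip3, Cd209a, Mgl2, Irf4 and Ltb. Each sequence runs 5′ to 3′ on the strand of the gene, ends before any annotated exon base, and has matches to the motifs searched in capitals.
Cd209a (chr8:3748985-3749234, minus strand): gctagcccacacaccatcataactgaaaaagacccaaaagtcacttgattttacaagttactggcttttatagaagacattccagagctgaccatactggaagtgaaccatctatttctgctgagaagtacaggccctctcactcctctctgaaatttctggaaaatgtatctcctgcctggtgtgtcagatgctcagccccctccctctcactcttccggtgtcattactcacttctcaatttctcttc
Mgl2 (chr11:70130107-70130328, plus strand): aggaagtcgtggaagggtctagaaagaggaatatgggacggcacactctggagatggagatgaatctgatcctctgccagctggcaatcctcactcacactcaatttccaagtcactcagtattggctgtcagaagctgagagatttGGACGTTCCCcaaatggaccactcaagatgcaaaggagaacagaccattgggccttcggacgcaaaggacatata
Tnip3 (chr6:65590148-65590397, plus strand): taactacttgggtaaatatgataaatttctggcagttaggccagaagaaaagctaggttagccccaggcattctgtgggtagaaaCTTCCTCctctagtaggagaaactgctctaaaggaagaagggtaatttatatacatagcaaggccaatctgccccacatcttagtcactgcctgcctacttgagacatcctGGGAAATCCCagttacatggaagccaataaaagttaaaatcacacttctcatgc
Ltb (chr17:35194257-35194438, plus strand): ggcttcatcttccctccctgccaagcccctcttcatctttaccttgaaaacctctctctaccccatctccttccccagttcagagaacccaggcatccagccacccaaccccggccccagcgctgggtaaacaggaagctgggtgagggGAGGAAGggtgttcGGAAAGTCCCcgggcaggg

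Motifs were searched on both strands, as exact letters, in the whole 250-base windows. They were the PU.1 and IRF composite element, GGAA and GAAA with 2 bases between them (in 2.3% of 32851 windows), the PU.1 core GAGGAAG (10.6%), the RBPJ site GTGGGAA (5.4%), the KLF site CCACACCC (3.2%) and an NF-kB site, GGGA and CC with 4 bases between them (17.6%). The PU.1 core can overlap the composite element by its letters. Windows of Mgl2, Tnip3, Ltb and Irf4 held the NF-kB letters, and those of Tnip3 and Ltb also held the PU.1 core. In Mgl2 the NF-kB letters match on the minus strand, from 103 bases before the start. A second match, at 14 bases, lies in the stretch left out as exon. In Tnip3 they begin at 54 bases, where the pattern with its 4 free bases matches on both strands, with the PU.1 core at 165 bases on the minus strand. In Ltb the PU.1 core begins at 101 bases on the plus strand and the NF-kB letters at 87 on the minus strand. Neither Cd209a nor Klf4 held any of the 5 motifs in this window. The RefSeq start of Tnip3 lies inside the gene as GENCODE draws it. The motif letters were thus present in genes that were lower (Mgl2, Tnip3) and in one that was higher (Ltb) in DiI-positive cells.

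Among the lectins, Cd209a encodes a mouse homologue of DC-SIGN, a receptor for mannose and fucose glycans (chromosome 8, 3743397 to 3748984, minus strand, GRCm38). After empty liposomes its log2 values were 14.39, 14.11 and 13.74 in the DiI-negative libraries and 12.02, 11.99 and 11.82 in the DiI-positive ones. After curcumin liposomes they were 14.20, 13.78 and 14.42 in DiI-negative and 11.67, 12 and 12.97 in DiI-positive libraries. Every DiI-negative library was thus above every DiI-positive one, and curcumin DiI-positive replicate 3 was the highest of its gate. The group means were 14.08 ± 0.33 and 11.94 ± 0.11 after empty and 14.13 ± 0.32 and 12.21 ± 0.68 after curcumin liposomes (SD, n = 3). In DiI-positive cells Cd209a was lower by 2.14 ± 0.29 on the log2 scale (SE) after empty liposomes (limma adjusted p = 0.0047). It was lower by 1.92 ± 0.29 after curcumin liposomes (limma adjusted p = 0.0077). It kept its call in 12 of 12 fits that each left out 1 library from the average, where it fell by 2.03 ± 0.20 (limma adjusted p = 0.00028). The curcumin call was lost with the depth index as a covariate (-1.82 ± 0.37, adjusted p = 0.0765) and when only the 6 curcumin libraries were fitted (-1.92, adjusted p = 0.0778).

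Clec10a and Mgl2 encode the macrophage galactose-type lectins MGL1 and MGL2, receptors for galactose and N-acetylgalactosamine glycans. The genes are adjacent on the plus strand of chromosome 11 (70156197 to 70170834 for Clec10a and 70130329 to 70137550 for Mgl2, GRCm38), with 18646 bases between them. Of the 50-base words in the exons of Mgl2, 12.24% also occur in Clec10a, and 8.49% of those of Clec10a occur in Mgl2. The sources used here do not give how such reads were counted, so the split between the 2 genes is uncertain.

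For Clec10a the values after empty liposomes were 10.56, 10.56 and 10.19 in DiI-negative and 8.82, 9.44 and 9.04 in DiI-positive libraries. After curcumin liposomes the DiI-negative libraries held 10.47, 10.82 and 10.93, and the DiI-positive ones 9.17, 9.18 and 10.01. Again no library of one gate reached into the other, and curcumin DiI-positive replicate 3 lay closest to the DiI-negative range. In DiI-positive cells Clec10a was lower by 1.34 ± 0.24 after empty liposomes (limma adjusted p = 0.015). It was lower by 1.29 ± 0.24 after curcumin liposomes (limma adjusted p = 0.019). Over both it fell by 1.31 ± 0.17 (limma adjusted p = 0.00091). The call after empty liposomes ended without DiI-negative replicate 1 (-1.28, adjusted p = 0.072), DiI-negative replicate 2 (-1.27, 0.0706) or DiI-positive replicate 1 (-1.20, 0.0559). That after curcumin liposomes ended without DiI-negative replicate 2 (-1.25, adjusted p = 0.0527) or 3 (-1.19, 0.0649), without DiI-positive replicate 1 (-1.14, 0.0551) or 2 (-1.15, 0.0784), with depth as a covariate (-1.44, 0.0792) and with only the 6 curcumin libraries (-1.29, 0.103).

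Mgl2 varied more between libraries of a group, with a pooled SD of 0.60 where genes of like level had a median of 0.24. Its values were 9.22, 9.56 and 9.12 in DiI-negative and 8.64, 8.57 and 7.58 in DiI-positive libraries after empty liposomes. Curcumin liposomes gave 9.09, 8.84 and 9.17 in DiI-negative and 6.89, 8.33 and 8.83 in DiI-positive libraries. The lowest library was curcumin DiI-positive replicate 1 and replicate 3 of that group, at 8.83, lay just under the lowest DiI-negative library. Under a single liposome the log2 fold changes of Mgl2, -1.04 ± 0.42 and -1.02 ± 0.42, did not pass (limma adjusted p = 0.22 for each). The curcumin value was -0.46 without DiI-positive replicate 1 and -1.43 without DiI-positive replicate 3 (limma adjusted p = 0.491 and 0.0572). The average of -1.03 ± 0.30 passed narrowly (limma adjusted p = 0.045), and in only 2 of 12 fits that left out 1 library, with adjusted p between 0.0117 and 0.102. It was also lost with depth as a covariate (-1.23, adjusted p = 0.124), with no filter (adjusted p = 0.0815) and under the replicate block (adjusted p = 0.0633).

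Clec4a4 encodes DCIR2, an inhibitory lectin of the dendritic cell immunoreceptor family (chromosome 6, 122990367 to 123024105, GRCm38). Its values spanned only 5.14 to 5.70 over the 12 libraries. DiI-negative libraries ranged from 5.33 to 5.70 (median 5.45) and DiI-positive libraries from 5.14 to 5.48 (median 5.29), with overlap. The difference of -0.18 ± 0.09 did not pass (limma adjusted p = 0.21; 95% interval from -0.37 to 0.01). Of its 50-base words, 15.68% are shared with Clec4a2, a neighbour in the same cluster with a mean log2 value of 10.82, so its low level is uncertain.

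The lectin relatives fixed as a list gave 2 genes lower and 1 higher among 9 tested of 13 listed (median -0.04). Cd209c (-0.70 ± 0.16, limma adjusted p = 0.015) and Cd209e (-0.47 ± 0.13, limma adjusted p = 0.031) fell, and Cd209d was at -1.01 ± 0.33 (limma adjusted p = 0.070). Clec4n, which encodes the fungal glycan receptor Dectin-2, rose (0.78 ± 0.14, limma adjusted p = 0.0049). Cd209f, Cd209g, Asgr1 and Asgr2 were below the level tested. On the other side of Cd209a, 49221 bases away, Fcer2a, the B cell low-affinity IgE receptor, rose (1.07 ± 0.18, limma adjusted p = 0.0040), so neighbouring genes of the cluster differed in direction.

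Tnip3 encodes ABIN-3, of a family of proteins that bind the ubiquitin-editing enzyme A20, itself a brake on NF-kB signalling (chromosome 6, 65525313 to 65634040, GRCm38). Its values after empty liposomes were 10.26, 10.24 and 9.82 in DiI-negative and 9.86, 9.29 and 9.61 in DiI-positive libraries. After curcumin liposomes they were 10.14, 10.33 and 10.29 in DiI-negative and 8.80, 9.38 and 9.78 in DiI-positive libraries. The gates overlapped slightly after empty liposomes and did not overlap after curcumin. Tnip3 was at -0.52 ± 0.23 (limma adjusted p = 0.26) after empty and at -0.93 ± 0.23 (limma adjusted p = 0.054) after curcumin liposomes, and it fell by 0.73 ± 0.16 over both (limma adjusted p = 0.015). The average was called in 12 of 12 fits without 1 library, but not with the depth index as a covariate (-0.61, adjusted p = 0.156). The curcumin contrast passed without DiI-positive replicate 3 (-1.16, adjusted p = 0.0112). Of A20 itself and 4 other partners, 0 of 5 genes were called over both liposomes (0 at an unadjusted p under 0.05; median 0.02), with Tnfaip3, which encodes A20, at -0.28 ± 0.20 (limma adjusted p = 0.42).

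Ltb encodes lymphotoxin beta, which anchors lymphotoxin at the cell surface as a ligand of the lymphotoxin beta receptor (chromosome 17, 35194439 to 35196320, plus strand, GRCm38). After empty liposomes its values were 12.58, 12.87 and 12.92 in DiI-negative and 13.45, 13.72 and 13.37 in DiI-positive libraries. The curcumin libraries held 12.62, 12.45 and 12.06 in DiI-negative and 13.69, 13.46 and 12.63 in DiI-positive libraries. Within each liposome the DiI-positive libraries were all higher, though curcumin DiI-positive replicate 3 was barely above its DiI-negative counterparts and lay below 2 of the empty DiI-negative libraries. The log2 fold change was 0.72 ± 0.24 after empty (limma adjusted p = 0.14) and 0.88 ± 0.24 after curcumin liposomes (limma adjusted p = 0.073). Over both, Ltb rose by 0.80 ± 0.17 (limma adjusted p = 0.011), and in 12 of 12 fits without 1 library. Adjusting for the depth index gave 0.65 (adjusted p = 0.143). The curcumin contrast was 1.19 when curcumin DiI-positive replicate 3 was left out (adjusted p = 0.00364), and with only the 6 empty libraries the empty contrast passed (adjusted p = 0.0263).

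The 10 B cell markers moved in the same direction as Ltb. Their summed level on the log2 scale was 16.27 to 16.55 in DiI-negative and 17.50 to 17.81 in DiI-positive libraries after empty liposomes. It was 15.96 to 16.39 in DiI-negative and 16.65 to 17.73 in DiI-positive libraries after curcumin liposomes, with the 16.65 in DiI-positive replicate 3, where Ltb was also lowest of that gate. No B cell marker was at 0, and the lowest value in any library was 8.75, for Pax5. Their part in the level of Ltb was not tested.

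The rest of the lymphotoxin axis gave 1 gene lower and 1 higher of 11 (median -0.07). Tnfsf14, which encodes the ligand LIGHT, fell (-0.71 ± 0.13, limma adjusted p = 0.0055), and Lta, the partner subunit in the same gene cluster, rose (0.52 ± 0.14, limma adjusted p = 0.037). Chuk, an NF-kB kinase subunit, was at -0.31 ± 0.11 (limma adjusted p = 0.10) and Birc2 at 0.36 ± 0.14 (limma adjusted p = 0.12). Tnf, which lies between Ltb and Lta, was at -0.07 ± 0.15 (limma adjusted p = 0.82).

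Sirpa encodes SIRP alpha, an inhibitory receptor for CD47 (chromosome 2, 129592835 to 129632228, plus strand, GRCm38). Its values after empty liposomes were 14.25, 14.40 and 14.24 in DiI-negative and 14.50, 14.45 and 14.80 in DiI-positive libraries. After curcumin liposomes they were 14.21, 14.55 and 13.87 in DiI-negative and 14.33, 14.45 and 14.65 in DiI-positive libraries. The gates separated after empty liposomes and overlapped after curcumin. The log2 fold changes were 0.29 ± 0.16 and 0.27 ± 0.16, with an average of 0.28 ± 0.11 that did not pass (limma adjusted p = 0.13; 95% interval from 0.03 to 0.52). It passed without curcumin DiI-negative replicate 2 (0.36, adjusted p = 0.0376) and after quantile normalization (0.31, adjusted p = 0.0442). Of 6 genes of the SIRP alpha and CD47 axis 1 was lower and 0 higher (median -0.17): Ptpn11, which encodes the phosphatase SHP-2, fell by 0.38 ± 0.11 (limma adjusted p = 0.037). Skap2 (-0.21 ± 0.08, limma adjusted p = 0.094), Cd47 (-0.21 ± 0.08, limma adjusted p = 0.098) and Sirpb1a (-0.12 ± 0.13, limma adjusted p = 0.59) did not pass.

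Esam encodes an endothelial cell-selective adhesion molecule of tight junctions (chromosome 9, 37528078 to 37538319, plus strand, GRCm38), and it was the most variable of the 10 genes, with a pooled SD of 0.80 against a median of 0.17 for genes of like level. After empty liposomes its values were 4.78, 4.84 and 5.93 in DiI-negative and 5.54, 4.79 and 5.28 in DiI-positive libraries. With curcumin they were 4.77, 4.82 and 5.66 in DiI-negative and 6.36, 4.82 and 7.44 in DiI-positive libraries. The highest was curcumin DiI-positive replicate 3, while replicate 2 of that group was near the lowest value of all. The contrasts of 0.02 ± 0.55 after empty (limma adjusted p = 0.99) and 1.12 ± 0.55 after curcumin liposomes (limma adjusted p = 0.31; 95% interval from -0.08 to 2.32) did not pass. The latter was 0.50 when curcumin DiI-positive replicate 3 was left out and 1.82 when replicate 2 was (limma adjusted p = 0.574 and 0.0804). The 10 endothelial markers had their highest summed level, 13.89, in that same library, where the other 2 of its group stood at 12.12 and 12.38 and DiI-negative libraries at 11.01 to 11.79. Over both liposomes 2 of 10 of these markers were higher and 0 lower, none was at 0, and their part in the level of Esam was not tested.

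**Figure D3:**
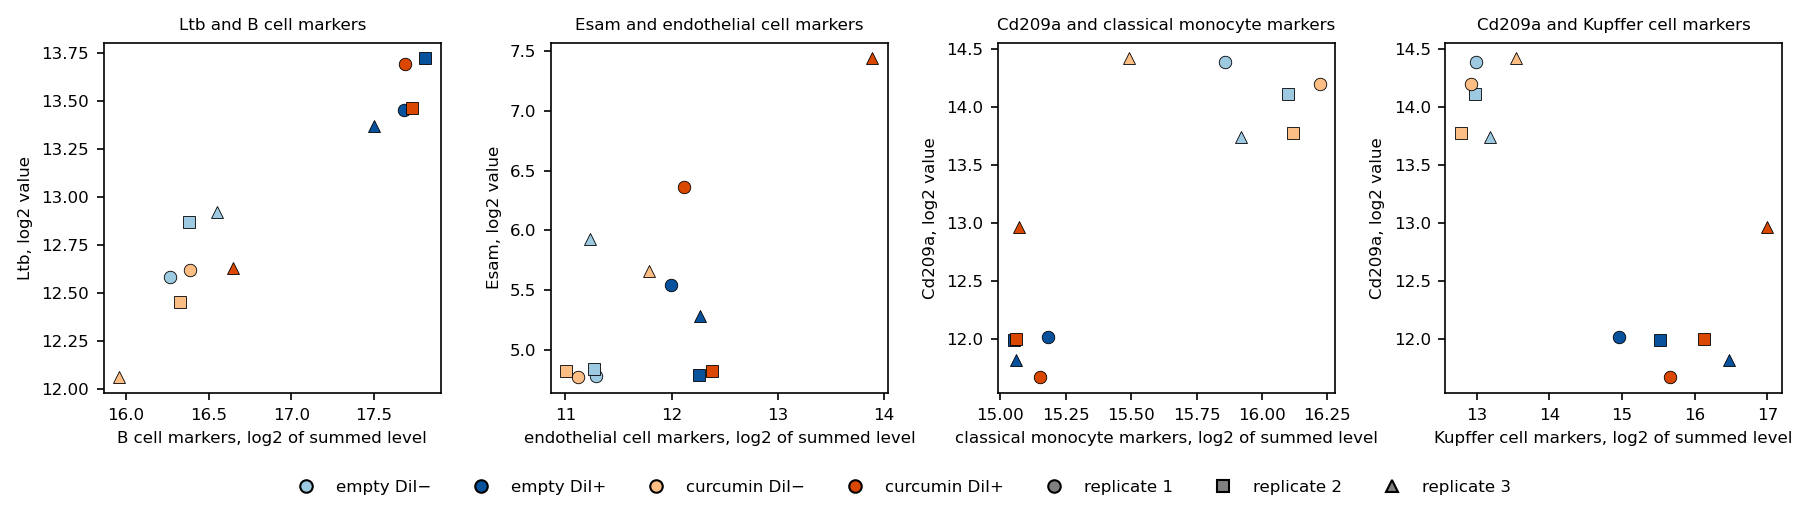
Log2 value of Ltb, Esam and Cd209a (y axes) against the log2 summed level of markers of another cell type (x axes) in each of the 12 libraries, coloured by group and shaped by replicate. Ltb is lowest among DiI-positive libraries where B cell markers are (16.65), and Esam is highest where endothelial markers are (13.89). Between the gates, Cd209a is lower where classical monocyte markers are lower and where Kupffer cell markers are higher. Curcumin DiI-positive replicate 3 has the highest Cd209a of its gate at the highest Kupffer cell marker level (16.99). Empty DiI-positive libraries run the other way, with Cd209a at 12.02, 11.99 and 11.82 where Kupffer cell markers are 14.96, 15.52 and 16.47.

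Irf4 encodes a transcription factor required by cDC2 (chromosome 13, 30749226 to 30766976, plus strand, GRCm38). Its values were 10.79, 10.34 and 10.14 in DiI-negative and 10.55, 10.18 and 10.51 in DiI-positive libraries after empty liposomes. The curcumin groups stood at 10.23, 10.66 and 10.62 in DiI-negative and 11.05, 11.21 and 10.11 in DiI-positive libraries. Libraries of the 2 gates overlapped under both liposomes. The average difference was 0.14 ± 0.19 (limma adjusted p = 0.70; 95% interval from -0.28 to 0.55). The curcumin contrast was 0.28 ± 0.27, and 0.62 when curcumin DiI-positive replicate 3 was left out (limma adjusted p = 0.63 and 0.0963). No group of Irf4 stood apart from another, and the 2 highest libraries, curcumin DiI-positive replicates 1 and 2, came from the same group as the lowest.

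Klf4 encodes a zinc finger transcription factor needed by a subset of cDC2 (chromosome 4, 55527143 to 55532466, minus strand, GRCm38). Its values after empty liposomes were 9.12, 9.31 and 9.25 in DiI-negative and 8.59, 9.09 and 8.40 in DiI-positive libraries. After curcumin liposomes they were 9.58, 9.55 and 9.25 in DiI-negative and 9.54, 8.41 and 8.87 in DiI-positive libraries. The gates separated after empty liposomes only, since curcumin DiI-positive replicate 1 lay within its DiI-negative range. The average of -0.53 ± 0.18 did not pass (limma adjusted p = 0.082). It passed without that library (-0.68, adjusted p = 0.0149) and with library weights (-0.62, adjusted p = 0.0222).

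Among 15 other transcription factors and growth factor receptors of dendritic cells, 6 were lower and 0 higher over both liposomes (median -0.34). Nfil3, a basic leucine zipper factor, fell by 1.02 ± 0.16 (limma adjusted p = 0.0027). Flt3, the receptor of the growth factor that expands dendritic cells, fell by 1.65 ± 0.32 (limma adjusted p = 0.0073). Spi1, which encodes PU.1, fell by 0.40 ± 0.08 (limma adjusted p = 0.0077), and Csf2rb, the shared beta chain of the GM-CSF receptor, fell by 0.57 ± 0.12 (limma adjusted p = 0.012). The other 2 lower genes were Rbpj, the nuclear effector of Notch (-0.55 ± 0.12, limma adjusted p = 0.013), and Zbtb46, a factor of conventional dendritic cells (-1.81 ± 0.51, limma adjusted p = 0.040).

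Of 10 further genes used to recognise cDC2, 3 were lower and 0 higher (median -0.00). Cd7 (-1.82 ± 0.20, limma adjusted p = 0.00032) and Tbx21, which encodes T-bet (-1.20 ± 0.16, limma adjusted p = 0.00092), fell, and both are also known from NK and T cells. The integrin Itgam, CD11b, fell by 0.54 ± 0.10 (limma adjusted p = 0.0066). Dtx1, a Notch target, was at 0.51 ± 0.16 (limma adjusted p = 0.063). Markers of cDC1, the sister lineage, gave 2 lower and 1 higher of 10 (median -0.65), with Batf3 at -0.54 ± 0.12, Naaa at -1.04 ± 0.24 and Cadm1 at 0.73 ± 0.21 (limma adjusted p = 0.017, 0.018 and 0.041).

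Summed markers of classical monocytes were lower in the same gate as the lectins. They stood at 15.86 to 16.10 and 15.49 to 16.22 in DiI-negative libraries after empty and curcumin liposomes, and at 15.05 to 15.18 and 15.06 to 15.15 in DiI-positive ones. Kupffer cell markers stood the other way, at 12.98 to 13.19 and 12.78 to 13.54 in DiI-negative and at 14.96 to 16.47 and 15.66 to 16.99 in DiI-positive libraries. Summed T and NK cell markers were 13.41 to 14.07 in DiI-negative and 12.13 to 12.79 in DiI-positive libraries. The part of these markers in the levels of Cd209a, Clec10a, Mgl2 and Tnip3 was not tested. Lists of mature migratory dendritic cells (1 lower and 1 higher of 8), plasmacytoid dendritic cells (0 and 1 of 7) and neutrophils (0 and 0 of 6 tested of 8, with 1 at an unadjusted p under 0.05) gave few calls.

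The second question is whether the cargo altered these genes, with curcumin compared to empty liposomes within a gate. No gene of the 10 passed in DiI-positive cells (limma adjusted p from 0.67 to 0.94) or in DiI-negative cells (limma adjusted p of 1.0 for each), and 0 of 10 had an unadjusted p under 0.05 in either gate. The share of all tested genes called was 0% in both gates. The medians of the 10 genes were 0.15 and 0.04. Libraries of the liposome groups overlapped for all 10 genes in each gate, where 10% of all tested genes did not overlap in DiI-positive and 11.2% in DiI-negative cells.

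In DiI-positive cells Cd209a differed between the liposomes by 0.27 ± 0.29 (95% interval from -0.36 to 0.90) and Clec10a by 0.36 ± 0.24 (from -0.17 to 0.88). The differences were -0.25 ± 0.42 for Mgl2 (from -1.17 to 0.67) and 1.00 ± 0.55 for Esam (from -0.20 to 2.21). Leaving out curcumin DiI-positive replicate 3 moved these to -0.11 for Cd209a, 0.08 for Clec10a, -0.65 for Mgl2 and 0.39 for Esam, and Irf4 from 0.38 to 0.71, with no call (limma adjusted p from 0.274 to 0.929). For Esam the value was 1.70 without replicate 2 of that group. Intervals of this width allow changes of more than 1 log2 unit in Mgl2 and Esam, and a p that misses the threshold does not show that the groups were alike. In DiI-negative cells the largest difference was in Ltb (-0.41 ± 0.24; from -0.94 to 0.11), and the smallest in Clec4a4 (0.02 ± 0.12).

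The gate contrast itself did not differ detectably between the liposomes. For the 10 genes 0 were called for this difference (limma adjusted p of 1.0 for each; 0 of 10 at an unadjusted p under 0.05), as were 0% of all tested genes. The largest estimates were 1.10 ± 0.78 in Esam (95% interval from -0.59 to 2.80) and -0.41 ± 0.33 in Tnip3 (from -1.12 to 0.31). Without 1 library they ran from 0.49 to 1.8 in Esam, the ends without curcumin DiI-positive replicates 3 and 2, and from -0.63 to -0.15 in Tnip3, the ends without replicates 3 and 1 of that group. Cd209a differed by 0.22 ± 0.41 and Clec10a by 0.05 ± 0.34. In the order of group means, both DiI-negative groups of Cd209a, Clec10a and Mgl2 stood above both DiI-positive groups. The pairs next to each other within a gate overlapped in their libraries, and the step between the gates, 1.87 for Cd209a, 0.98 for Clec10a and 0.77 for Mgl2, did not. For Sirpa, Irf4, Klf4, Clec4a4, Tnip3, Esam and Ltb every neighbouring pair of groups overlapped.

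Within its group, curcumin DiI-positive replicate 3 was the library of its group nearest the DiI-negative mean for 7 of the 10 genes, against 2 for replicate 1 and 1 for replicate 2. The 7 include Irf4 and Clec4a4, which were not called in any gate comparison. For Irf4 that library (10.11) lay below the DiI-negative mean (10.50) and the other 2 of its group above it. After empty liposomes the 3 DiI-positive libraries were nearest for 3, 3 and 4 genes. The same count over all tested genes was not made. In that library Cd209a (12.97), Clec10a (10.01) and Mgl2 (8.83) were highest and Ltb (12.63) lowest of the gate. Its summed cDC1 markers stood at 15.40, where those of the other 2 in its group were 14.47 and 14.46. The same markers were also highest of their group in curcumin DiI-negative replicate 3, at 15.94 against 15 and 14.64. Plasmacytoid dendritic cell markers were likewise highest in both replicate 3 libraries, at 13.14 in DiI-positive (against 12.53 and 12.58) and 13.26 in DiI-negative cells (against 12.25 and 11.83). B cell markers were lowest of their group in both, at 16.65 and 15.96. Without curcumin DiI-positive replicate 3, 4 of the 10 genes were called after curcumin liposomes, 3 lower and 1 higher: Cd209a (-2.30, limma adjusted p = 0.000741), Clec10a (-1.57, limma adjusted p = 0.0021), Tnip3 and Ltb. The number of all genes called then rose from 437 to 1088.

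**Figure D4:**
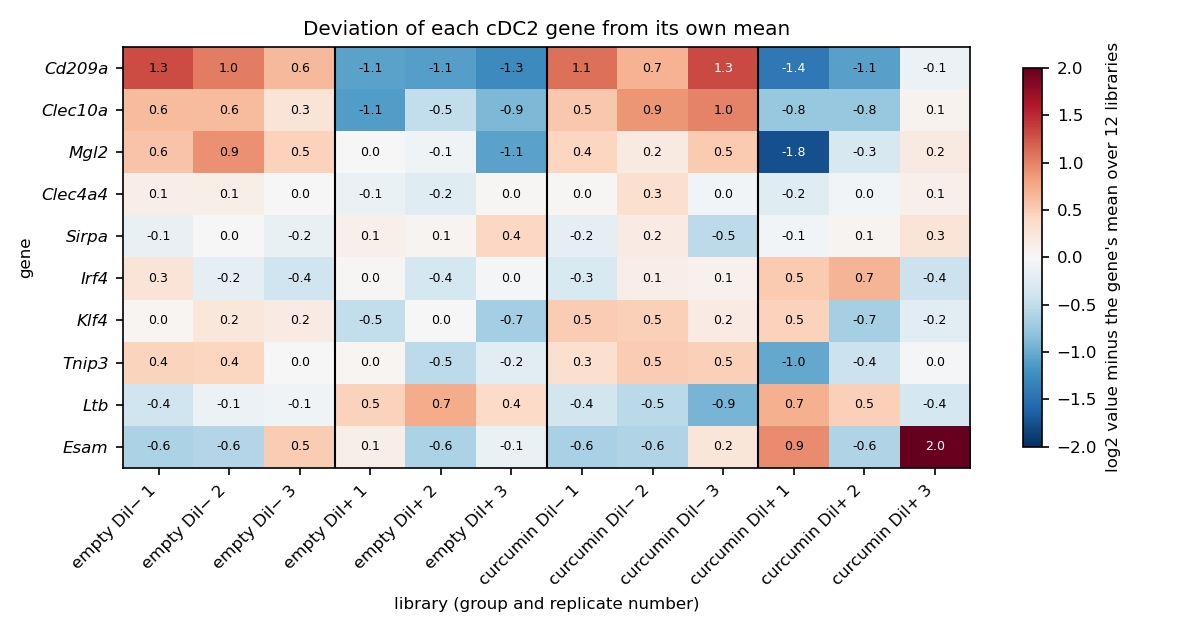
Log2 value of each cDC2 gene (rows) in each library (columns) minus the mean of that gene over the 12 libraries, with groups divided by black lines. Cd209a, Clec10a and Mgl2 are above their means in all 6 DiI-negative columns, Ltb is below its mean in the same columns, and the last column, curcumin DiI-positive replicate 3, stands near 0 for the 3 lectins and highest for Esam.

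Genes of like pattern were taken as the 3 with the highest Pearson r of log2 values over the 12 libraries, as a description of libraries that share gate, depth and cell mix. Picking the highest r among so many tested genes over 12 libraries gives high values even for unrelated genes. For Cd209a they were Padi2 (r = 0.986), the NK receptor gene Klrd1 (0.985) and Gm13031 (0.984). For Ltb they were the nucleoside transporter Slc28a2 (0.990), Gimap1, a GTPase gene of lymphocytes (0.984), and Fcer2a (0.984). Clec10a went with Sqle, the sterol synthesis enzyme squalene epoxidase (0.967), Fam129a (0.967) and H13 (0.963), and Mgl2 with Tmem131 (0.949), Ppa1 (0.942) and Hdac2 (0.941). Tnip3 went with Golph3 (0.977), Edem1 (0.975) and Trps1 (0.950).

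Among the genes that did not pass, Sirpa was nearest to the scavenger receptors Msr1 (0.959) and Lrp1 (0.934) and to Pilrb2 (0.937). Esam was nearest to Mmrn2, a gene of endothelial matrix (0.923), Spats2 (0.900) and Ppic (0.890). Klf4 lay nearest to Cnih4 (0.929), Fosl2 (0.922) and Napsa (0.911), Irf4 to Tfam (0.892), Neurl3 (0.886) and Pds5a (0.878), and Clec4a4 to the kinase gene Lyn (0.963), Adap1 (0.887) and Ciao2a (0.879).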

How the data were processed

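RNA of sorted cells was amplified with a SMARTer low-input kit and made into Nextera XT libraries, per the labels' protocols. The 24 sample records carry 12 library codes, 2 records each, and each code counted as 1 library; 0 value columns were left unmapped. The authors deposited 1 log2 value per gene and library. STAR 2.4.0d, DESeq2 1.8.1 and GRCm38 are named in the submitters' processing notes; what counted the reads, with which annotation, and how values were transformed is not given in the sources used here. They resemble a regularized log, on which changes of low genes are understated; this was not tested. Read numbers are not in the values; a relative depth index from 1244 genes varied 1.65-fold.

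The 14227 genes whose mean log2 reached 4, of 24874 not at 0 in all libraries, were fitted with limma 3.58.1 in R 4.3.3: 4 group means, 1 common variance per gene (degrees of freedom 8 residual and 3.51 prior), eBayes with trend, Benjamini-Hochberg adjusted p under 0.05 over all genes. The fit was also run on simulated data of independent genes without shared library or depth effects, which cannot test such effects here. Symbols came from GENCODE M21, for 99.3% of genes not at 0. Named were the 10 genes, up to 4 genes of smallest p in each list (further called genes of a list were named after their values were seen), and 3 genes of like pattern each. The 10 genes and all lists were chosen with earlier results of these data known. Alternatives were filters, groups in the fit, prior variance, library weights, centring, quantile normalization, depth, a replicate block and leaving out each library.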

Additional observations from a re-analysis of the deposited data

How the results depend on the processing

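The lower levels of Cd209a and Clec10a in DiI-positive cells over both liposomes passed in all 20 alternatives run, and no called value changed sign. With the depth index as a covariate, 0 of the 10 genes were called after curcumin liposomes and 2 over both, where the calls among all tested genes fell from 437 to 56 and from 1722 to 438. The index was mostly lower in DiI-positive libraries, so this covariate overlaps with the gate and the 2 cannot be fully told apart. With only the 2 groups compared 0 of the 10, and 40 of all, were called after curcumin liposomes. Without 1 library the number called of the 10 ran from 1 to 2 after empty liposomes (85 to 263 of all genes), from 1 to 4 after curcumin liposomes (114 to 1088) and from 4 to 6 over both (1149 to 2244). With the replicate block 2, 2 and 4 of the 10 were called in the 3 gate comparisons (405, 407 and 1616 of all genes), the lost call being Mgl2. The labels tie the replicate numbers to nothing, so no pairing was assumed, and whether same-numbered libraries shared material was not tested. Same-numbered libraries of the 2 gates deviated from their group means with r from 0.004 to 0.328, the highest in curcumin replicate 3. Each empty library correlated best with its own number in the other gate, and 2 of 3 curcumin libraries did. The replicate block ties a number across both liposomes, so a pairing of gates within 1 liposome was not fitted. In every case below the value was uncalled and the cause of a change of sign was not tested.

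The gate contrast of Irf4 after empty liposomes was 0.0138 with library weights, 0.0047 with median centring and 0.1038 with depth, and from -0.1521 to 0.1724 without 1 library. That of Esam was -0.0093 after quantile normalization and from -0.1851 to 0.3912. Curcumin against empty liposomes in DiI-negative cells ran, without 1 library, from -0.1144 to 0.2294 for Cd209a, from -0.2524 to 0.0884 for Sirpa, from -0.0595 to 0.265 for Irf4, from -0.093 to 0.0952 for Clec4a4 (-0.0071 with library weights) and from -0.3896 to 0.2733 for Esam. In DiI-positive cells it ran from -0.107 to 0.5445 for Cd209a, from -0.6549 to 0.314 for Mgl2, from -0.0503 to 0.515 for Klf4, from -0.0297 to 0.142 for Clec4a4 and from -0.4705 to 0.0595 for Ltb. The difference of the gate contrasts ran from -0.1617 to 0.4898 for Cd209a, from -0.2308 to 0.2207 for Clec10a (-0.0126 with depth), from -0.3912 to 0.5777 for Mgl2 (-0.0868 with depth) and from -0.1966 to 0.1442 for Sirpa. It ran from -0.2848 to 0.2804 for Klf4 (-0.0258 with library weights, -6e-04 with median centring and -0.0161 with depth), from -0.0485 to 0.1454 for Clec4a4 and from -0.0562 to 0.4738 for Ltb.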
